A study of Mus musculus with 6 samples.

Results

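The receptors and ligands of the platelet-derived growth factor (PDGF) and epidermal growth factor (EGF) families were examined in RNA-seq of mouse macrophages with and without macrophage scavenger receptor 1 (MSR1), a surface receptor that takes up modified lipoproteins and other polyanionic ligands. The set held 10 genes of the 52550 in the deposited table: the 3 receptors Pdgfra, Pdgfrb and Egfr, and the 7 ligands Pdgfa, Pdgfb, Pdgfc, Pdgfd, Hbegf, Areg and Ereg. Each symbol matched 1 row of the table. They were chosen from the counts of these same libraries, as receptors seen lower in MSR1 KO beside ligands that macrophages can make, so their MSR1 KO to MSR1 WT differences are given as a description without a test. Of the 10 genes, 8 had enough counts to enter the fit of 16402 genes, and Areg and Ereg did not.

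Bone marrow cells of C57BL/6 mice were grown for 7 days with M-CSF, the macrophage colony-stimulating factor, at 25 ng/ml to give bone marrow-derived macrophages, which then shared a transwell with bone marrow mesenchymal stem cells (BMSCs) for 48 h. Macrophages in 3 libraries came from MSR1 KO mice and in 3 libraries from MSR1 WT mice of the same background. The labels name no genotype for the BMSCs, and no source used here says how the MSR1 KO allele was built. The study called the 3 libraries of a genotype biological replicates, and no label ties a library to an animal, so adjusted p-values measure the spread between these libraries. Total counts lay between 36143518 and 47417448 per library. Msr1 itself had 2118, 1825 and 2000 counts in MSR1 KO against 7543, 9163 and 9219 in MSR1 WT, a log2 fold change of -2.02 (SE 0.14), so reads on the targeted gene remained in every MSR1 KO library. The 17 macrophage markers listed for this work were all detected and summed to 31700 to 33200 counts per 1000000 counts (CPM, with library sizes scaled by the TMM method) in MSR1 KO and 30400 to 33200 in MSR1 WT. The 18 stromal cell markers were detected as well, at 1540 to 2050 CPM in MSR1 KO and 2040 to 2620 CPM in MSR1 WT, in libraries labelled as macrophages.

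PDGFs are dimers of A, B, C or D chains that bind the receptor tyrosine kinases PDGFRα and PDGFRβ, which are known for driving the growth and migration of fibroblasts, pericytes and mesenchymal progenitors. HB-EGF, amphiregulin and epiregulin are made as membrane-bound precursors, are cut loose by metalloproteases, and bind EGFR, a receptor tyrosine kinase of the ERBB family. Macrophages are a known source of PDGFs and EGF-family ligands, and the PDGF receptors are classically carried by mesenchymal cells rather than by macrophages.

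Promoters are shown for the 2 receptors that had one in the RefSeq table and were lower in MSR1 KO, for Pdgfc, the ligand with the most counts over the 6 libraries together, and for Areg, which was barely detected. Each sequence runs 5′ to 3′ on the gene's strand from 250 bases before the annotated start through its first 50 bases, in RefSeq's GRCm38.p6 annotation. Pdgfra lies at chr5:75152001-75152300, Egfr at chr11:16751953-16752252, Pdgfc at chr3:81036166-81036465 and Areg at chr5:91139349-91139648, all on the plus strand. Entries were matched for 6 of the 10 genes, not for Pdgfrb, Pdgfb, Hbegf and Ereg. Capitals mark matches to 6 motifs searched on both strands: the GC box GGGCGG, the CCAAT box CCAAT, the TATA box TATAAA, the AP-1 site TGANTCA, the TEAD site GGAATG and the cyclic AMP response element TGACGTCA. A match is placed by its first letter as printed.
Pdgfra: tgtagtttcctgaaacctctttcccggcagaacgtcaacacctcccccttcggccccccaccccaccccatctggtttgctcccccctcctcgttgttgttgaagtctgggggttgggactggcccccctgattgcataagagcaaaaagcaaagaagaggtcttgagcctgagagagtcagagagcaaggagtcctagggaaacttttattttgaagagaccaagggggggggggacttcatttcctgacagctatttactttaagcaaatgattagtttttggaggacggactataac
Egfr: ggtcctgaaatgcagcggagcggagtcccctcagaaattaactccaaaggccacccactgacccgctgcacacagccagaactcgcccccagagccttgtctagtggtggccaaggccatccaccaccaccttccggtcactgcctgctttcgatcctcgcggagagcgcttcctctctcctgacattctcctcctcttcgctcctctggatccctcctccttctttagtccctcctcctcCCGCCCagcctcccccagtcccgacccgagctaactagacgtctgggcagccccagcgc
Pdgfc: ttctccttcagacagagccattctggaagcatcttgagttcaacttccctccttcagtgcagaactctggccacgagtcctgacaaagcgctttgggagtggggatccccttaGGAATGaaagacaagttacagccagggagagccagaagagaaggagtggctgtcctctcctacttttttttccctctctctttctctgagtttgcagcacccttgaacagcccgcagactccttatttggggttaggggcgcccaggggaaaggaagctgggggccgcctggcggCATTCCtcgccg
Areg: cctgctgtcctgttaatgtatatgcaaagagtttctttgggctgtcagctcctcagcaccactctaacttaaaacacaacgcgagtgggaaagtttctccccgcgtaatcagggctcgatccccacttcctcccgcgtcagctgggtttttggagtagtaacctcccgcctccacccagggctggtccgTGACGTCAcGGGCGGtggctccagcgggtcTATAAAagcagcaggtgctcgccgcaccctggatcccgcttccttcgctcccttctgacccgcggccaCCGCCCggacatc
The Pdgfra window held none of these motifs. The Egfr window held 1 GC box, on the reverse strand, 9 bases before the start. The Pdgfc window held a TEAD site 137 bases before the start and another on the reverse strand 38 bases past it. Areg had the fullest set, with the cyclic AMP response element 61 bases, a GC box 52 bases and a TATA box 31 bases before the start, and a reverse GC box 37 bases past it. None of these matches overlapped another. Of 32851 promoters of this length, 35.7% held the GC box, 37.4% the CCAAT box, 13.6% the TATA box, 7.81% the AP-1 site, 14.7% the TEAD site and 1.79% the cyclic AMP response element. GC content was 51.0% for Pdgfra, 62.3% for Egfr, 55.0% for Pdgfc and 59.3% for Areg against a median of 52.7% over all promoters. The 2 receptors shared no motif of the 6 in these windows, and a match describes letters only.

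All 3 receptors had fewer counts in every MSR1 KO library than in any MSR1 WT library. Pdgfra, whose product PDGFRα binds A, B and C chains, had 226, 334 and 312 counts in MSR1 KO replicates 1 to 3 against 751, 650 and 693 in MSR1 WT replicates 1 to 3. The mean level was 7.13 ± 1.11 CPM in MSR1 KO against 16.2 ± 2.31 CPM in MSR1 WT (SD, n = 3 for each genotype here and for the other genes), a fitted log2 fold change of -1.19 (SE 0.16), or 2.27-fold more in MSR1 WT. The highest MSR1 KO library, replicate 2, reached 8.39 CPM and the lowest MSR1 WT library, also replicate 2, 13.7 CPM. Pdgfra (ENSMUSG00000029231.15) spans chr5:75152292-75198215, and 6.21% of its exon bases are shared with the opposite-strand genes Gm42802 and Gm42803, whose reads cannot be told from its own because the strand setting of the counting is not given in the sources used here.

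Pdgfrb, which encodes the receptor for B and D chains and is a classical pericyte gene, was the most abundant receptor. Its counts were 662, 1045 and 939 in MSR1 KO and 1750, 1590 and 1746 in MSR1 WT. The levels were 21.6 ± 4.1 CPM and 39.4 ± 5.11 CPM, a log2 fold change of -0.87 (SE 0.15). As with Pdgfra, MSR1 KO replicate 2 was the highest of its genotype and MSR1 WT replicate 2 the lowest. Pdgfrb (ENSMUSG00000024620.11, chr18:61045150-61085061) lies directly upstream of Csf1r on the same strand, 15.5 kb away. Csf1r, the M-CSF receptor of macrophages and a relative of the PDGF receptors, had 162264 to 210689 counts in MSR1 KO and 179009 to 213862 in MSR1 WT, a log2 fold change of 0.04 (SE 0.053, adjusted p = 0.75 by edgeR's quasi-likelihood test).

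Egfr, the receptor of HB-EGF, amphiregulin and epiregulin, had 435, 414 and 479 counts in MSR1 KO and 798, 758 and 711 in MSR1 WT. Its mean was 10.9 ± 1.02 CPM in MSR1 KO and 17.5 ± 1.71 CPM in MSR1 WT, a log2 fold change of -0.68 (SE 0.13), the smallest difference among the 3 receptors. Within MSR1 KO its order over libraries differed from that of the PDGF receptors, with replicate 1 the highest at 12.1 CPM and replicate 2 at 10.4 CPM. Egfr (ENSMUSG00000020122.16) spans chr11:16752203-16918158 and shares no exon base with another annotated gene.

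The 4 PDGF ligands overlapped between the genotypes. Pdgfa, which encodes the A chain, had 315, 468 and 424 counts in MSR1 KO and 396, 496 and 469 in MSR1 WT, or 9.88 ± 1.63 CPM and 10.5 ± 0.874 CPM (log2 fold change -0.08, SE 0.15). Pdgfb, the B chain, had 896, 1402 and 1434 counts in MSR1 KO and 1335, 1460 and 1650 in MSR1 WT, or 30.3 ± 5.15 CPM and 34.4 ± 4.9 CPM (log2 fold change -0.18, SE 0.15). For both, the lowest library was MSR1 KO replicate 1 and the differences were of the size of their standard errors. Of the exon bases of Pdgfa (ENSMUSG00000025856.15, chr5:138976014-138997370, minus strand), 26.1% are shared with the opposite-strand gene 6330403L08Rik, so its counts are less certain than those of Pdgfb (ENSMUSG00000000489.6, chr15:79995900-80014808, minus strand), which shares none.

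Pdgfc, whose C chain is secreted in a latent form and activated by proteolysis, had the most counts of the ligands over the 6 libraries together, although Pdgfb had more in MSR1 WT. Its counts were 1442, 1316 and 1704 in MSR1 KO and 1438, 1214 and 1405 in MSR1 WT. Pdgfc stood at 36.6 ± 3.55 CPM and 31.5 ± 5.13 CPM, a log2 fold change of 0.22 (SE 0.13), in the opposite direction to the receptors but with overlapping libraries. Pdgfc (ENSMUSG00000028019.9) spans chr3:81036416-81214040 and shares 2.89% of its exon bases with the opposite-strand gene Gm16000. Pdgfd, the D chain, had 135, 179 and 145 counts in MSR1 KO and 283, 172 and 156 in MSR1 WT, or 3.79 ± 0.689 CPM and 4.76 ± 1.83 CPM (log2 fold change -0.33, SE 0.29). MSR1 WT replicate 1 stood above the other 5 libraries, and without it the log2 fold change of Pdgfd (ENSMUSG00000032006.15, chr9:6168584-6378850) was 0.03.

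Of the 3 EGF-family ligands in the set, Hbegf was the one with counts in every library. It had 185, 171 and 217 counts in MSR1 KO and 175, 200 and 176 in MSR1 WT, or 4.7 ± 0.429 CPM and 4.24 ± 0.0229 CPM (log2 fold change 0.15, SE 0.16). Once scaled by depth, every MSR1 KO library lay above every MSR1 WT library, by as little as 4.3 against 4.26 CPM. Hbegf (ENSMUSG00000024486.5) lies on chr18:36504929-36515805, minus strand.

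Areg and Ereg, which encode amphiregulin and epiregulin, were at or near 0. Areg had 4 counts in MSR1 KO replicate 2 and 0 in the other 5 libraries. Ereg had 4 counts in MSR1 KO replicate 1, 9 and 20 in MSR1 WT replicates 1 and 2, and 0 in the other 3. The limit that a 0 sets is 3 counts, which is 0.0632 to 0.0835 CPM depending on the library, and such limits cover counting error only. No fold change is given for either gene. They sit in a cluster of EGF-family genes on chromosome 5, in the order Epgn, Ereg (chr5:91074622-91093646), Areg (chr5:91139599-91148432) and Btc, with gaps of 39.4, 46.0 and 209 kb. The flanking members were as low, with Epgn (epigen) at 8 counts in MSR1 KO replicate 2, 5 in MSR1 WT replicate 3 and 0 elsewhere, and Btc (betacellulin) at 5 counts in MSR1 WT replicate 3 and 0 elsewhere.

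**Figure D1:**
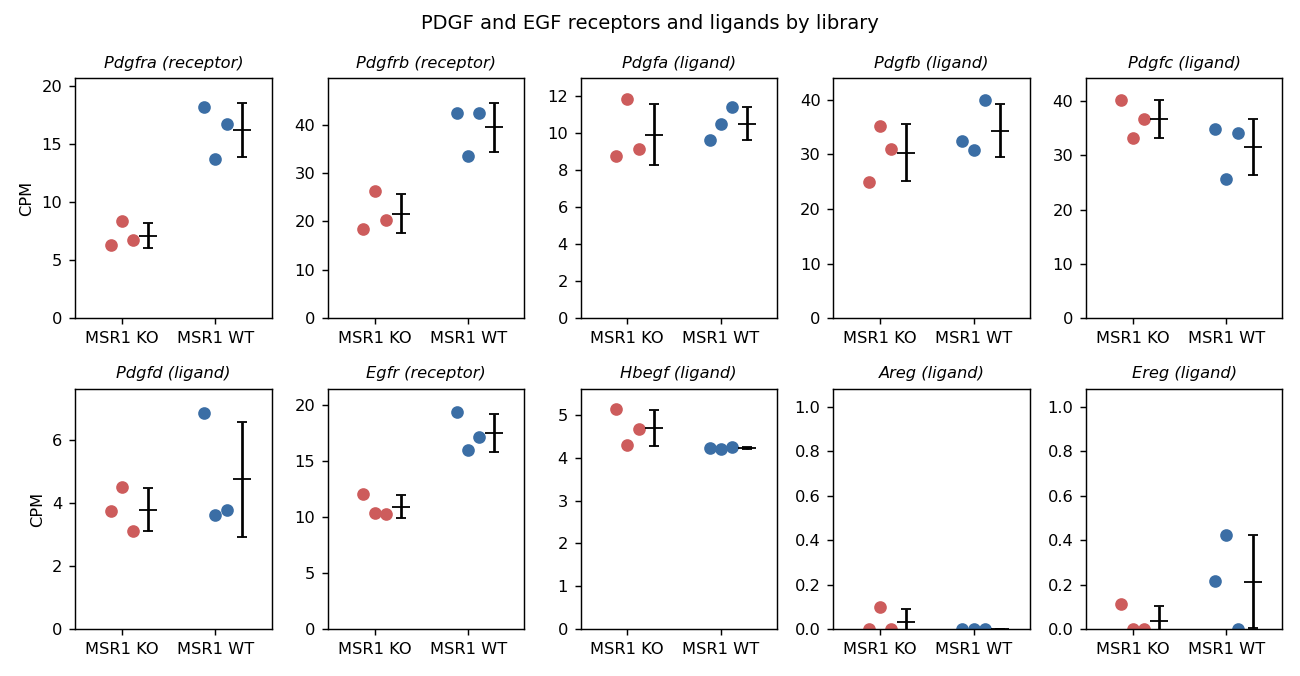
CPM of the 10 genes in each library (points; red, MSR1 KO; blue, MSR1 WT), with the mean and SD of each genotype (black bars, n = 3) and a linear axis from 0 in each panel. The red and blue points of Pdgfra, Pdgfrb and Egfr are apart, those of Pdgfa, Pdgfb, Pdgfc and Pdgfd overlap, and Areg and Ereg stay at or below 0.422 CPM.

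Across the 8 genes with a fitted value, the 3 receptors had the 3 lowest log2 fold changes and the 5 ligands lay between -0.33 and 0.22. The median over all 16402 tested genes was -0.00231. At an adjusted p under 0.05 (edgeR's quasi-likelihood test, adjusted over all tested genes), 3 of the 10 genes were called lower and 0 higher, where 2.66% of all tested genes were called lower and 2.25% higher. By the study's definition of a differentially expressed gene (DEG), a fold change above 1.5 with p under 0.05, read here as an unadjusted p, the same 3 receptors were lower and 0 genes higher, against 5.05% and 3.59% of all tested genes. Every MSR1 KO library was below every MSR1 WT library for 3 of the 8 genes and above for 1, where 13.4% and 12.1% of all tested genes were so. These counts restate how the genes were chosen, and nothing is read from them. The adjusted calls also rested on single libraries: 0 of the 10 genes were called once replicate 1 of either genotype was left out, and only Pdgfra without MSR1 KO replicate 3. The sizes moved less, with log2 fold changes of -1.32 to -1.09 for Pdgfra, -1.03 to -0.75 for Pdgfrb and -0.75 to -0.60 for Egfr when each library was left out in turn.

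**Figure D2:**
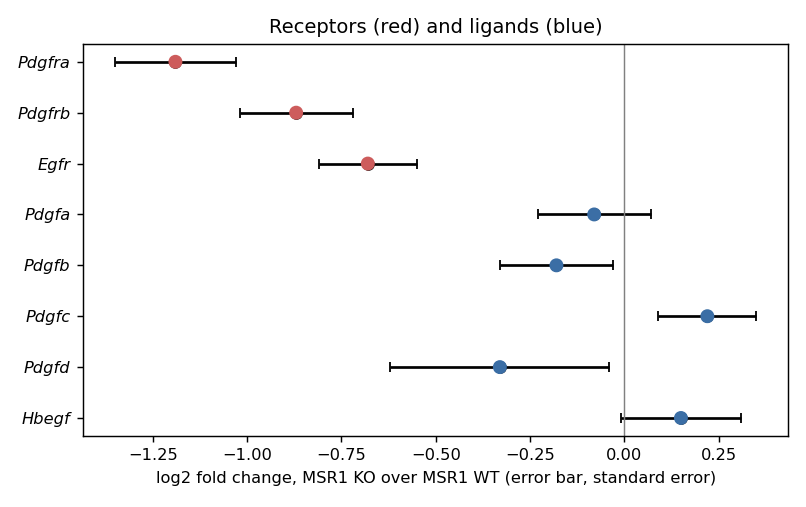
Fitted log2 fold change of MSR1 KO over MSR1 WT (points; red, receptors; blue, ligands) with its standard error (bars) for the 8 genes in the fit, on a linear axis of log2 values. The receptors lie between -1.19 and -0.68 and the ligands between -0.33 and 0.22.

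Levels of different genes were compared as CPM per kb of annotated exon. In MSR1 WT the order began with Pdgfb at 8.26 ± 1.18, Pdgfrb at 7.19 ± 0.932 and Pdgfc at 6.19 ± 1.01 CPM per kb, neighbours whose libraries overlapped. Pdgfa followed alone at 3.36 ± 0.28 CPM per kb. Pdgfra at 1.62 ± 0.23, Egfr at 1.55 ± 0.151 and Pdgfd at 1.51 ± 0.58 CPM per kb overlapped one another, Hbegf lay below them at 0.877 ± 0.00473 CPM per kb, and Ereg and Areg were last. In MSR1 WT the level of Pdgfrb per length thus stood beside those of the most abundant ligands.

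In MSR1 KO, Pdgfb and Pdgfc led at 7.29 ± 1.24 and 7.2 ± 0.697 CPM per kb and overlapped. Pdgfrb, at 3.95 ± 0.748 CPM per kb, was now apart from both and overlapped Pdgfa, at 3.17 ± 0.523 CPM per kb. Pdgfd, Hbegf and Egfr lay at 1.2, 0.973 and 0.966 CPM per kb with overlapping neighbours, and Pdgfra, at 0.711 ± 0.111 CPM per kb, was the lowest of the genes above the limit of detection. With the longest transcript as the length, Pdgfa stood above Pdgfrb in MSR1 KO (4.8 against 3.99 CPM per kb, still overlapping), and Hbegf moved up the order, at 1.63 CPM per kb, above Pdgfd, Egfr and Pdgfra. In MSR1 WT the same length put Pdgfc above Pdgfrb (8.94 against 7.27 CPM per kb, overlapping), with Pdgfb apart from both at 11.7 CPM per kb.

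**Figure D3:**
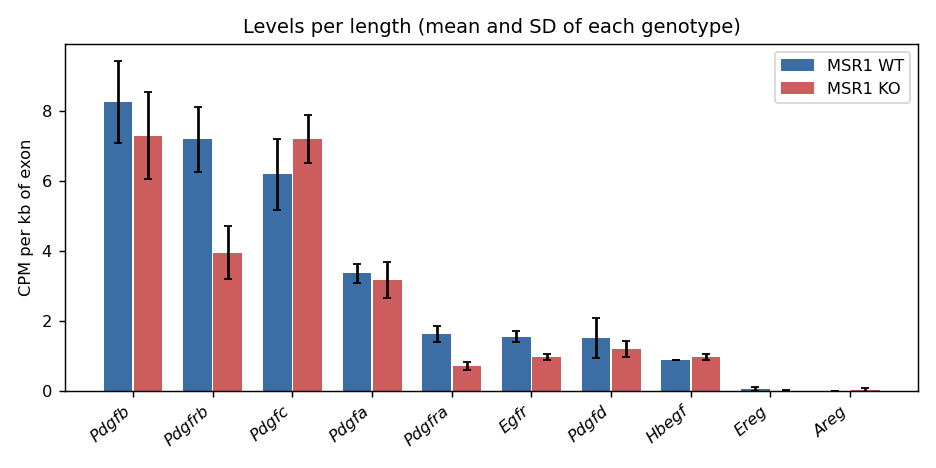
Mean CPM per kb of exon of the 10 genes in MSR1 WT (blue) and MSR1 KO (red), with the SD over 3 libraries (black bars), on a linear axis from 0. Pdgfb, Pdgfrb and Pdgfc are the tallest in MSR1 WT, and in MSR1 KO the Pdgfrb bar stands at 3.95 CPM per kb, beside Pdgfa.

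Ratios within a library do not depend on its total. The level of Pdgfra over that of Pdgfrb, both per length, was 0.187, 0.175 and 0.182 in MSR1 KO and 0.235, 0.223 and 0.217 in MSR1 WT. The genotypes did not overlap, so within the PDGF receptor pair Pdgfra was the more reduced. Pdgfra over Egfr was 0.587, 0.912 and 0.736 in MSR1 KO and 1.06, 0.969 and 1.1 in MSR1 WT, again without overlap. Among ligands, Pdgfc over Pdgfb was 1.32, 0.767 and 0.972 in MSR1 KO and 0.881, 0.68 and 0.696 in MSR1 WT, which overlapped.

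Stromal cell markers as a sum were also lower in MSR1 KO, though not in every library, and in bulk libraries fewer cells of a type and less RNA per cell cannot be told apart. Of the 18 stromal markers, 5 were called lower and 0 higher at an adjusted p under 0.05 (edgeR). The shares of all tested genes so called were 2.66% and 2.25%. The median log2 fold change of the 18 markers was -0.38. Every MSR1 KO library was below every MSR1 WT library for 8 of them and above for 1, Thy1 (CD90, a surface marker of BMSCs), whose log2 fold change was 1.31 (SE 0.37, adjusted p = 0.091, edgeR) and which met the DEG definition as higher. Among all tested genes, every MSR1 KO library was below every MSR1 WT library for 13.4% and above for 12.1%. Nt5e and Lum had log2 fold changes of 0.46 each, with overlapping libraries. The 5 markers called lower were Cxcl12 (log2 fold change -1.11), Fbn1 (-0.84), Loxl1 (-0.78), Prrx1 (-0.66) and Col6a3 (-0.61). Pdgfra, Pdgfrb and Egfr stood at -1.19, -0.87 and -0.68. The summed levels of the list were 1540, 2050 and 1570 CPM in MSR1 KO and 2620, 2040 and 2360 CPM in MSR1 WT. MSR1 KO replicate 2 and MSR1 WT replicate 2 had nearly the same sum. In that pair Pdgfra was at 8.39 against 13.7 CPM, Pdgfrb at 26.2 against 33.5 CPM and Egfr at 10.4 against 16.0 CPM. Single stromal markers were unequal in that pair, with Cxcl12 at 3303 against 5992 counts and Thy1 at 239 against 69. The pair was picked for its sums and holds 1 library of each genotype. The receptors had been chosen as lower, so nothing is read from this pair. The part of the stromal markers in the receptor differences was not tested.

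**Figure D4:**
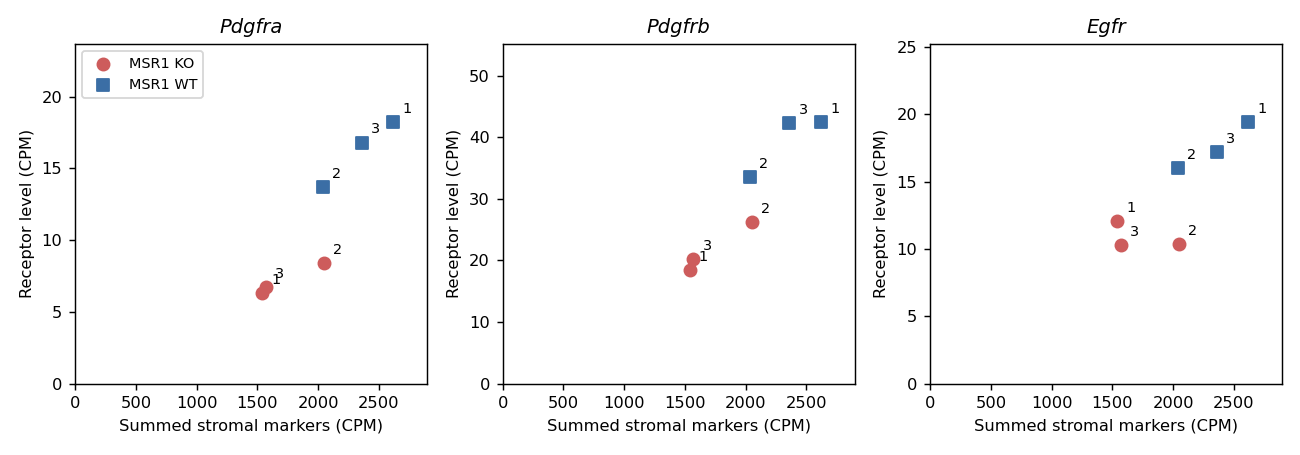
Level of each receptor (vertical axis, CPM) against the summed level of 18 stromal cell markers (horizontal axis, CPM) in each library (red circles, MSR1 KO; blue squares, MSR1 WT; numbers, replicates), on linear axes from 0. The 2 libraries numbered 2 have stromal sums of 2050 and 2040 CPM, and in each panel the MSR1 WT library is the higher. A shared number does not pair libraries, and nothing is read from these 2.

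Per 1000 counts of stromal markers, Pdgfra had 4.08, 4.09 and 4.29 counts in MSR1 KO and 6.95, 6.72 and 7.1 in MSR1 WT, a ratio of means of 0.600. The 3 libraries of each genotype lay close together on this scale, closer than in CPM. Pdgfrb had 12.0, 12.8 and 12.9 counts in MSR1 KO and 16.2, 16.4 and 17.9 in MSR1 WT, a ratio of 0.745. Egfr had 7.85, 5.07 and 6.58 counts in MSR1 KO and 7.39, 7.83 and 7.29 in MSR1 WT, a ratio of 0.867 with overlapping libraries. On this scale both PDGF receptors were lower in every MSR1 KO library, while Egfr was not separated. The receptors had been chosen as lower, and no share of all genes is given for this scale. The separation is therefore a description only. Without Col1a2 and Col1a1, the 2 markers with the most counts, the ratios were 0.664 for Pdgfra, 0.825 for Pdgfrb and 0.956 for Egfr, and the same 2 receptors did not overlap.

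Per 1000 counts of macrophage markers, the 5 measured ligands overlapped between the genotypes, with ratios of means from 0.793 for Pdgfd to 1.14 for Pdgfc. Pdgfb had 0.771, 1.11 and 0.93 counts in MSR1 KO and 0.975, 0.957 and 1.31 in MSR1 WT on this scale. Without Lyz2 and Csf1r, the 2 macrophage markers with the most counts, Pdgfb alone was separated, with 1.77, 2.43 and 2.07 counts in MSR1 KO and 2.5, 2.56 and 3.12 in MSR1 WT. Of the 17 macrophage markers, 3 were called higher and 0 lower, where 2.25% and 2.66% of all tested genes were. The median log2 fold change of the 17 was 0.25. Every MSR1 KO library was above every MSR1 WT library for 11 of them, and for 12.1% of all tested genes.

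Other cell types that carry these receptors or ligands were looked for by their markers. The 7 mural cell markers, which stand for cells known to be rich in PDGFRβ, summed to 468 to 593 CPM in MSR1 KO and 757 to 962 CPM in MSR1 WT, with 2 called lower and 0 higher. Most of that sum came from Acta2, the smooth muscle actin that stromal cells also make, at 504 ± 61.1 CPM in MSR1 KO and 808 ± 110 CPM in MSR1 WT. Acta2, Notch3 and Myh11 were lower in every MSR1 KO library, and the other 4 mural markers overlapped, Rgs5 and Mcam with log2 fold changes of 0.34 and 0.24 and Des and Cspg4 of -0.49 and -0.38. The 7 endothelial markers summed to 111 to 136 CPM in MSR1 KO and 68.6 to 107 CPM in MSR1 WT, with 1 called higher. The 7 megakaryocyte markers, a cell type known for storing PDGF, overlapped in their sum, at 439 to 821 CPM and 438 to 636 CPM. None was called at an adjusted p under 0.05 (edgeR). Most of the sum came from Pf4, at 581 ± 203 CPM in MSR1 KO and 519 ± 97.5 CPM in MSR1 WT. Ppbp and Gp1ba were lower in every MSR1 KO library (log2 fold changes -0.62 and -0.52), and Ppbp met the DEG definition. Pf4 and Itga2b overlapped (0.16 and -0.28). Neutrophil markers (8 genes, 636 to 1040 CPM and 419 to 799 CPM) overlapped. Mast cell or basophil markers (6 genes) stood at 23.6 to 28.5 CPM in MSR1 KO and 14.0 to 23.2 CPM in MSR1 WT, with Tpsb2 at 0 in every library. None was called in either list at an adjusted p under 0.05 (edgeR). Prss34, of the mast cell or basophil list, met the DEG definition as higher, with a log2 fold change of 0.71. Epithelial cell markers, the cells in which EGFR is best known, were at 3.95 to 4.45 CPM and 3.06 to 4.58 CPM over 6 genes, with Krt5 and Krt8 at 0 in every library and none called. Of the markers, Csf1r, Kdr and Cspg4 also stand in the pathway lists. The part of these cells in the receptor and ligand levels was not tested.

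The genes whose profile over the 6 libraries was closest to that of Pdgfrb, by the root mean square difference of centred log2 CPM, were Col6a2 (0.0241), Wisp2 (0.0461), Map3k7cl (0.0635), P3h4 (0.0827) and Cyp1b1 (0.0877), where the median over all tested genes was 0.521. For Pdgfc they were Bad (0.0441), Rps23-ps1 (0.0492), Plekhh1 (0.0494), Mir22 (0.0533) and Rad17 (0.0608), against a median of 0.29. None of these neighbours is in the marker lists, which are short, so their cell type is not read from this. The stromal list holds another collagen VI gene, Col6a3, with a log2 fold change of -0.61 beside -0.88 for Col6a2.

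Lists of the wider pathway were chosen with earlier results of these data known, so their shares are given as a description. They held 88 other genes in 7 lists, of which 83 were tested. By edgeR's quasi-likelihood test, 8 (9.64%) were called lower in MSR1 KO and 2 (2.41%) higher, beside the 2.66% and 2.25% of all tested genes, and their median log2 fold change was -0.05. As DEGs, 11 (13.3%) were lower and 3 (3.61%) higher, beside 5.05% and 3.59% of all tested genes. The calls were sensitive to single libraries, with 3 lower without MSR1 WT replicate 1, 4 without MSR1 KO replicate 1 or 3, and 5 without each of the other libraries, while 0 to 3 were higher.

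Among the 3 other ERBB receptors, 1 was called lower and 0 higher. Erbb2, which has no known ligand and pairs with the other ERBB receptors, had 81, 108 and 144 counts in MSR1 KO and 186, 229 and 246 in MSR1 WT, a log2 fold change of -0.92 (SE 0.21, adjusted p = 0.045, edgeR). Its groups did not overlap, but the call was lost whichever of the 6 libraries was left out, with log2 fold changes of -1.03 to -0.79. Erbb3 had 363, 405 and 492 counts in MSR1 KO and 352, 358 and 361 in MSR1 WT, with a log2 fold change of 0.31 that did not pass (adjusted p = 0.22, edgeR). Erbb4 was at 0 in every library.

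Of the 8 other EGF-family ligands, 5 were tested and 0 were called in either direction. The 3 with the most counts were neuregulins, ligands of ERBB3 and ERBB4. Nrg2 had 156, 256 and 121 counts in MSR1 KO and 77, 61 and 110 in MSR1 WT, a log2 fold change of 1.20 (SE 0.38) that met the DEG definition but not the adjusted threshold (adjusted p = 0.13, edgeR). Nrg1 had a log2 fold change of -0.18 (SE 0.4) and Nrg4 of 0.56 (SE 0.29), neither past the threshold. The summed level of the list was 6.86 to 12.1 CPM in MSR1 KO and 6.75 to 7.01 CPM in MSR1 WT.

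Of the 11 receptors and ligands related to PDGF, all tested, 2 were called lower and 2 higher. Both that fell were ligands of PDGF receptor relatives. Kitl, the stem cell factor that binds KIT, had 190, 245 and 258 counts in MSR1 KO and 557, 573 and 482 in MSR1 WT, a log2 fold change of -1.13 (SE 0.13, adjusted p = 0.009, edgeR). Csf1, which encodes the M-CSF that was also added to the cultures, had 2644, 2760 and 3203 counts in MSR1 KO and 5073, 5593 and 4909 in MSR1 WT, a log2 fold change of -0.76 (SE 0.069, adjusted p = 0.0036, edgeR). Both were called with any 1 of the 6 libraries left out.

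Both that rose were receptors or receptor-like. Kit, the receptor of stem cell factor, had 699, 863 and 1012 counts in MSR1 KO and 415, 328 and 566 in MSR1 WT, a log2 fold change of 1.04 (SE 0.22, adjusted p = 0.039, edgeR). Kit is the gene that follows Pdgfra on chromosome 5, 377 kb away, and the neighbours differed in opposite directions. Pdgfrl, named for its likeness to the PDGF receptors, had 56, 68 and 80 counts in MSR1 KO and 25, 17 and 10 in MSR1 WT, a log2 fold change of 2.04 (SE 0.4, adjusted p = 0.031, edgeR). Pdgfrl (chr8:40926212-40990785) lies 1.28 Mb from Msr1. The call of Kit was kept only without MSR1 WT replicate 3 and that of Pdgfrl in none of the 6 fits with a library left out, with log2 fold changes of 0.82 to 1.31 and 1.79 to 2.45.

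Of 8 co-receptors, 2 were called lower and 0 higher. Cd9, a tetraspanin that associates with the membrane form of HB-EGF, had 1147, 1309 and 1473 counts in MSR1 KO and 3556, 4396 and 4224 in MSR1 WT, a log2 fold change of -1.54 (SE 0.086, adjusted p = 0.00045, edgeR), and was called with any library left out. Gpc1, a heparan sulfate proteoglycan of the cell surface, had 1115, 1520 and 1538 counts in MSR1 KO and 2115, 2316 and 2426 in MSR1 WT, a log2 fold change of -0.63 (SE 0.11, adjusted p = 0.023, edgeR). The call of Gpc1 was kept only without MSR1 KO replicate 2 or MSR1 WT replicate 3, with log2 fold changes of -0.72 to -0.55 over the 6 fits.

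Of 11 genes for ligand processing and shedding, 10 were tested and 0 were called at an adjusted p under 0.05. Of the 10, Rhbdf1 met the DEG definition as lower, with a log2 fold change of -0.71 (SE 0.2, adjusted p = 0.095, edgeR). The 3 with the most counts were the metalloproteases Adam17, which sheds HB-EGF and amphiregulin, Adam9 and Adam10. Their log2 fold changes were 0.38 (SE 0.17), 0.11 (SE 0.11) and 0.02 (SE 0.069), with adjusted p-values of 0.29, 0.67 and 0.93 by edgeR. Adam17 had 13696, 14867 and 10764 counts in MSR1 KO and 10970, 12253 and 9732 in MSR1 WT, which overlapped.

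All 28 adaptors and kinases were tested, and 1 was called lower and 0 higher, with a median log2 fold change of -0.01. Src, a tyrosine kinase recruited by both receptor families, had 516, 411 and 454 counts in MSR1 KO and 800, 1017 and 926 in MSR1 WT, a log2 fold change of -0.88 (SE 0.16, adjusted p = 0.027, edgeR). Its call was kept only without MSR1 KO replicate 1, with log2 fold changes of -1.06 to -0.77 over the 6 fits. Of 19 feedback inhibitors and phosphatases, all tested, 2 were called lower and 0 higher, with a median of -0.06.

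Errfi1, which encodes the EGFR kinase inhibitor MIG6, had 1808, 2322 and 2535 counts in MSR1 KO and 3697, 3924 and 3273 in MSR1 WT, a log2 fold change of -0.62 (SE 0.087, adjusted p = 0.014, edgeR). The call was lost without MSR1 KO replicate 1 and without MSR1 WT replicate 1, with log2 fold changes of -0.68 to -0.56 over the 6 fits. Spry1, a Sprouty inhibitor of receptor tyrosine kinase signalling to Ras, had 121, 118 and 119 counts in MSR1 KO and 304, 216 and 310 in MSR1 WT, a log2 fold change of -1.13 (SE 0.24, adjusted p = 0.038, edgeR). Its call was kept only without MSR1 WT replicate 2, with log2 fold changes of -1.33 to -1.01. Counts of both were lower in every MSR1 KO library than in any MSR1 WT library.

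**Figure D5:**
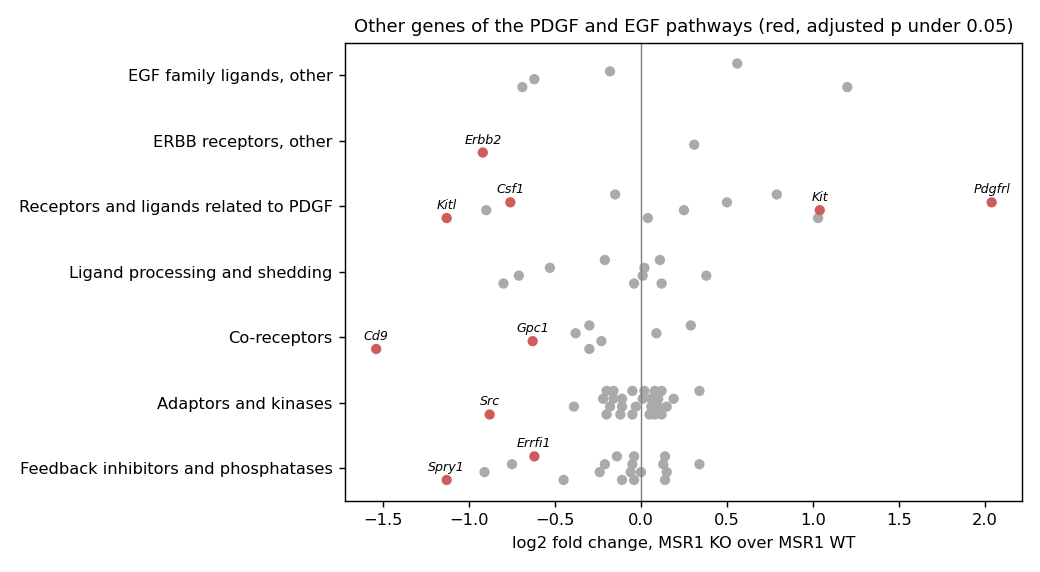
Fitted log2 fold change of MSR1 KO over MSR1 WT (horizontal axis, linear in log2) for the 83 tested pathway genes outside the set of 10, a point per gene in 7 lists (rows; vertical offsets only separate points). Red points with names passed an adjusted p under 0.05, 8 of them lower and 2 higher, and the adaptors and kinases apart from Src lie between -0.39 and 0.34.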

How the data were processed

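RNA-seq was deposited for 3 MSR1 KO and 3 MSR1 WT libraries of bone marrow-derived macrophages co-cultured with BMSCs. Per the labels, the submitters' processing notes name fastp 0.17.1, HISAT2 2.1.0, DESeq2 1.18.1 and R 3.4.3, while the study's methods name TopHat and FPKM values. The counting program, strand setting and genome build are not given in the sources used here. The authors deposited raw counts per gene and library, which were the values used. Beside them, the authors deposited a size-factor scaled signal of each library and, from their own comparison, log2 fold changes with raw and adjusted p-values, none of which was used. No value column was left unmapped (0). GENCODE's GRCm38 annotation held 52403 of the 52550 identifiers, 49909 with an identical span, so positions are on GRCm38.

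Counts were filtered with filterByExpr, scaled by TMM and tested with the quasi-likelihood test of edgeR 4.0.16 in R 4.3.3, with Benjamini-Hochberg adjustment over 16402 genes. SEs came from dividing the log2 fold change by the root of the F statistic. Total counts of 36143518 to 47417448 per library set the precision. Library comparisons within a genotype differed beyond sampling noise, so each library counted as 1 replicate. The fit was tested on simulated counts with 200 changed genes. The members and the lists of genes were chosen with earlier results of these data known. Genes were named by rule: the 10 members, Msr1, called genes of each pathway list or else its 3 most counted, markers at 0, and the 5 genes closest in profile to Pdgfrb and to Pdgfc. Flanking genes, Rhbdf1 and other single markers were named after their values were seen. Alternatives were DESeq2 1.42.0, its size factors in edgeR, library size alone, other filters on low counts (none, or at least 10 counts in every library), a replicate block, each library left out, the longest transcript as length, and fewer markers.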

Additional observations from a re-analysis of the deposited data

How the results depend on the processing

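The log2 fold changes of the 8 genes in the fit moved by less than the spread between replicates in all 96 values from the alternatives run, and the 3 receptors met the DEG definition under each of them. Adjusted calls depended on the setting. With the replicate number as a block, 0 of the 10 genes were called, as were 3 pathway genes lower and 0 higher, and 78 genes lower and 59 higher among all genes, while 5 pathway genes were higher DEGs. Numbers do not pair these libraries: deviations of same-numbered libraries correlated at -0.0261, 0.0187 and -0.0048. With no filter beyond a total count above 0, 288 genes were lower, 237 higher and 1 pathway gene higher. DESeq2's Wald test called 800 lower and 695 higher, with 13 pathway genes lower and 4 higher. With each library left out in turn, 53 to 372 genes were called lower and 18 to 407 higher, 0 to 3 of the 10 genes lower, 3 to 5 pathway genes lower and 0 to 3 higher, and 2 to 5 pathway genes were higher DEGs. Among all genes, the lowest counts of 53 and 18 came without MSR1 WT replicate 1, and the cause was not tested. Over all alternatives, the 10 called pathway genes lost the call 43 times, each time in the same direction, and kept it 77 times. Of the ratios to marker counts, 53 moved by less than the replicate spread and 3 by more. These 3 were Pdgfra (0.600 to 0.664), Pdgfrb (0.745 to 0.825) and Hbegf (1.09 to 0.966). Each moved when the 2 markers with the most counts were left out. Of the levels per length, 27 moved by less and 13 by more, of the latter 12 under the other length. Depth limits Areg and Ereg, which stay at the level of a few counts.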
